A study of Mus musculus with 30 samples.

Results

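Aminoacyl-tRNA synthetases were followed through 30 single muscle fibres in which the mitochondrial calcium uniporter MCU had been raised, silenced or left as it was. The set held 36 of the 35527 gene names on the array, taken by symbol from the deposited gene names, and 45 of its 55681 probes. Cytosolic enzymes (20 genes) and mitochondrial enzymes (16 genes, with names ending in 2) were kept apart. Of the 36 genes, 35 were tested, since Nars2, the mitochondrial asparagine enzyme, was not well above background on any of the 30 arrays.

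Each synthetase joins 1 amino acid to its transfer RNAs, and these charged tRNAs feed the ribosome. Cytosol and mitochondria use mostly separate enzymes, all encoded in the nucleus. Eprs is a fusion that charges tRNAs for both glutamate and proline, while Kars and Gars each give a cytosolic and a mitochondrial form from a single gene. Eprs, Iars, Lars, Qars, Mars, Kars, Rars and Dars sit together in the multi-synthetase complex, held by the scaffold proteins Aimp1, Aimp2 and Eef1e1. Several cytosolic synthetase genes are known targets of Atf4, the transcription factor of the amino acid response.

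Male CD1 mice were injected at 8 weeks of age, and the fibres were later dissected from the extensor digitorum longus, a hindlimb muscle made mostly of fast fibres. Wild type fibres carried no vector. MCU-vector fibres carried an adeno-associated virus (AAV) encoding MCU, silenced fibres an AAV with a hairpin against MCU, and transfected controls an AAV that the titles describe as a hairpin against luciferase and other labels as having no cloned insert. At 7 days there were 4 wild type, 3 MCU-vector, 4 transfected control and 3 silenced fibres, and at 14 days 4 of each. Fibres of injected muscles were chosen by the green marker ZsGreen, and, per the labels' protocols, part of their RNA was used to measure MCU by PCR and fibres showing the intended change went on to the arrays. The labels do not say which fibres share an animal, so all p-values reflect fibre-to-fibre spread, part of which may be technical.

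All levels below are log2 signal minus the array's 75th percentile, and all differences are log2 differences of group means, with their standard error (SE). The threshold was an adjusted p of 0.05 in limma (Benjamini-Hochberg over 23368 genes), and genes below it are said to have passed. Levels of different probes were not compared. Raw 75th percentiles ranged from 82.5 to 136, and the share of probes well above background from 49.3% to 59.5%. At 7 days silenced fibres had 75th percentiles of 82.5 to 103 and transfected controls of 106.6 to 128, and the part of this gap in the results was not tested. Of 10 fast-fibre markers, 9 were well above background on all 30 arrays, and so were 5 of 7 macrophage, 3 of 7 lymphocyte, 1 of 5 endothelial, 1 of 4 satellite cell, 1 of 4 erythroid and 0 of 5 fibroblast markers. Among the rest, Pdgfra of fibroblasts, Ms4a1 of B cells and Myf5 of satellite cells were well above background on none. The part of other cell types in the results was not tested. Mcu, named Ccdc109a in the files, was higher with the MCU vector by 3.90 at 14 days (adjusted p = 4.21e-06), while its difference of 0.60 at 7 days did not pass on the array (adjusted p = 0.999), and it was lower with silencing by -2.07 and -3.06 (adjusted p = 0.00172 and 1.98e-05). In single fibres, fewer transcripts of a gene cannot be told apart from a change in the RNA of the whole fibre.

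Promoter sequence was not used to choose the members, and 4 motifs were counted in it. RefSeq windows (build GRCm38.p6, 250 bases before to 50 after a start) were found for 27 of the 36 genes, 13 cytosolic and 14 mitochondrial, and Cars, Hars, Hars2, Lars, Nars, Pars2, Rars, Vars and Wars had none. TGATGNAA, a core of the amino acid response element that Atf4 binds with its partners, was searched on both strands. It was present in 5 of 13 cytosolic windows (38.5%), in 0 of 15 mitochondrial windows, and in 3.97% of all 32851 windows. A match from each of these 5 genes is shown so that the motif can be read in its context; the other 8 cytosolic windows did not hold it, and no test was made. Each line reads along the gene's strand, 5′ to 3′, with the match in capitals. All but that of Yars lie on the other strand and so read as the reverse complement.
Aars, chr8:111033840-111033869: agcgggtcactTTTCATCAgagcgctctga
Gars, chr6:55037960-55037989: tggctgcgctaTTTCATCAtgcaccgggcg
Iars, chr13:49682126-49682155: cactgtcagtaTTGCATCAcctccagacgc
Tars, chr15:11399655-11399684: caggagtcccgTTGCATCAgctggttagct
Yars, chr4:129189895-129189924: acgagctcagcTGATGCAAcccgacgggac

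CACGTG, the E-box that Myc and related factors bind, was present in 4 of 13 cytosolic windows (Aars, Farsb, Iars and Tars, 30.8%), in 1 of 15 mitochondrial windows (Ears2), and in 7.15% of all windows. Aars, the alanine enzyme, held both motifs, as did Iars and Tars. The STAT motif TTCNNNGAA was in 2 cytosolic windows (Aars and Kars) and 1 mitochondrial window (Nars2), against 8.3% of all windows. The interferon-stimulated response element was in 1 window, that of Qars, against 3.44% of all. A match describes letters in a window and is not a measured binding site.

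MCU-vector fibres were compared with wild type fibres on the same slide. Wild type fibres carried no vector, so virus, marker and choice of fibres cannot be told apart from MCU here. No synthetase gene passed over both days, where 1.11% of all genes did (260 genes), nor on day 7 (0.573%), on day 14 (0.419%) or for the change of the effect between the days (0.197%). Over both days 3 cytosolic genes were higher and 1 lower at an unadjusted p below 0.05 in limma, and 0 mitochondrial genes were higher and 3 lower. Under each of the 11 alternatives tried for the both-days comparison the count stayed at 0. Differences were small: from -0.27 to 0.38 among the 20 cytosolic genes, with a median of 0.07 and 12 above 0, and from -0.37 to 0.38 among the 15 mitochondrial genes, with a median of -0.12 and 11 below 0. The median over all genes was -0.03. The widest 95% interval of a cytosolic gene reached 0.51 to either side of its value and that of a mitochondrial gene 0.55. The median SE was 0.11 for cytosolic and 0.15 for mitochondrial genes. Moderate changes of single genes could therefore go undetected here.

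The 6 genes with the largest statistic in this comparison gave the following values. Hars, the histidine enzyme, stood at 2.72, 2.79, 2.57 and 2.77 in wild type fibres and 2.77, 2.99 and 2.99 with the vector at 7 days, and at 2.91, 2.93, 2.65 and 2.84 against 3.09, 3.07, 3.42 and 3.03 at 14 days. The groups overlapped at 7 days and were apart at 14 days. Its difference over both days was 0.26 (SE 0.08, adjusted p = 0.14). Lars, the leucine enzyme, which is also a leucine sensor for mTORC1, differed by 0.26 (SE 0.09, adjusted p = 0.181), and its vector fibres at 14 days (1.80 to 2.03) lay above the wild type ones (1.44 to 1.79). Sars, the serine enzyme, was at -0.27 (SE 0.10, adjusted p = 0.189). Eprs was at 0.32, with an SE of 0.12 and an adjusted p of 0.235. The mitochondrial enzymes Hars2 and Cars2, for histidine and cysteine, were also below wild type, Hars2 at -0.24 (SE 0.09, adjusted p = 0.24) and Cars2 at -0.34 (SE 0.15, adjusted p = 0.318).

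Groups did not overlap for 3 of the 35 genes at 7 days (Qars with the vector above, Cars and Hars2 below), against 8.18% of all genes. At 14 days they did not overlap for 4 genes, all with the vector above (Hars, Lars, Wars and Lars2), against 3.95% of all genes with the vector above and 8.26% in either direction. None did so in the same direction on both days, against 1.19% of all genes.

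**Figure D1:**
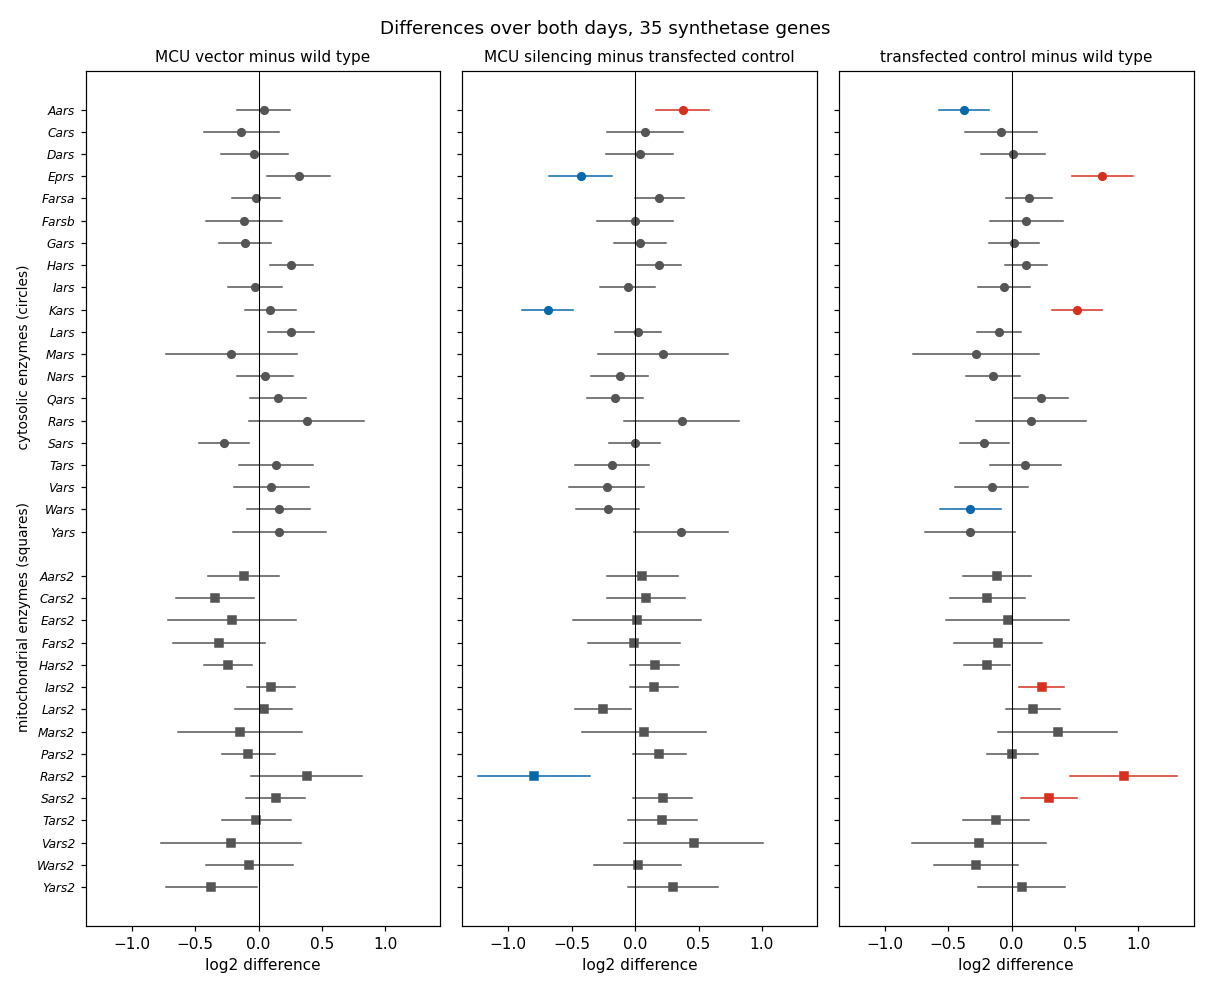
Log2 differences over both days (points) with 95% intervals (lines) for the 35 tested synthetase genes, circles for cytosolic and squares for mitochondrial enzymes, in 3 comparisons on a shared scale. Red and blue mark genes that passed as higher and lower; none is coloured for the MCU vector, 4 are for silencing and 7 for transfected control against wild type.

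Silencing of MCU was compared with the transfected control on the same slide. Over both days 4 synthetase genes passed, of which Aars rose and Kars, Eprs and Rars2 fell, or 4 of 35 tested against 14.4% of all genes (8.55% higher and 5.90% lower). By class, 3 of 20 cytosolic and 1 of 15 mitochondrial genes passed. Median differences were 0.01 for cytosolic, 0.09 for mitochondrial and 0.05 for all genes, and with arrays scaled on their median these became -0.11, -0.04 and -0.08, so neither class had a direction that held under both scalings. Among all genes that passed, the share that was higher was 59.2%, and it was 26.1% with median scaling and 74.5% with the 75th percentile taken over probes detected on all arrays.

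Kars, the lysine enzyme, had the smallest p of the set. Its probe lies at chr8:114517440-114517499 (mm9, minus strand). At 7 days it stood at 3.06, 3.05, 3.51 and 2.86 in transfected controls and at 1.99, 2.05 and 1.89 in silenced fibres. At 14 days the values were 3.33, 3.59, 3.49 and 3.62 against 3.42, 3.09, 3.06 and 3.52. All 3 silenced fibres of day 7 lay below every other fibre of the study, whereas the groups overlapped at 14 days. Kars was thus lower by -1.15 at 7 days (SE 0.14, adjusted p = 1.62e-05). At 14 days the estimate was -0.23, with an SE of 0.13 and an adjusted p of 0.354. The change between the days, 0.91, passed (SE 0.20, adjusted p = 0.00778), although it had an adjusted p of 0.0767 when only these 4 groups were fitted. Over both days Kars fell 1.61-fold (log2 -0.69, SE 0.10, adjusted p = 8.46e-05), and it passed under all 11 alternatives and without any 1 of the 15 fibres.

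Eprs, the glutamate and proline enzyme, was probed at chr1:187252093-187252152 (mm9, plus strand). Transfected controls stood at 2.33, 2.21, 1.93 and 1.75 at 7 days and silenced fibres at 1.59, 1.94 and 1.59. At 14 days the controls stood at 2.07, 1.78, 2.16 and 1.93 and silenced fibres at 1.28, 1.57, 1.33 and 1.72. The groups overlapped at 7 days and were apart at 14 days. Eprs fell 1.35-fold over both days (log2 -0.43, SE 0.12, adjusted p = 0.0197). The call was lost without silenced fibre 3 of day 7 (-0.40, adjusted p = 0.0511) and with Myh4 and Myh1, the fast myosins, as covariates (-0.32, adjusted p = 0.141).

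Rars2, the mitochondrial arginine enzyme, was probed at chr4:34607264-34607323 (mm9, plus strand) and was well above background on 28 of 30 arrays. At 7 days transfected controls stood at -1.35, -0.73, -1.47 and -1.35 and silenced fibres at -1.62, -1.79 and -2.42, with no overlap. At 14 days the controls stood at -0.92, -1.22, -1.22 and -1.30 and silenced fibres at -2.84, -2.00, -2.20 and -1.12, so that 1 silenced fibre lay among the controls. Rars2 fell 1.74-fold over both days (log2 -0.80, SE 0.21, adjusted p = 0.0147). This call too was lost without silenced fibre 3 of day 7 (-0.68, adjusted p = 0.0525) and with the myosin covariates (-0.55, adjusted p = 0.139), and with normexp background correction the difference was -0.28 (adjusted p = 0.0139).

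Aars was the member that rose over both days. Its probe lies at chr8:113579376-113579434 (mm9, plus strand), and a second probe was not well above background on any array. Transfected controls stood at 2.01, 2.39, 1.84 and 2.04 at 7 days and silenced fibres at 2.39, 2.74 and 2.32. At 14 days the controls stood at 1.33, 1.76, 1.74 and 1.67 and silenced fibres at 2.23, 1.84, 1.92 and 1.86, above every control. Aars rose 1.30-fold over both days (log2 0.37, SE 0.10, adjusted p = 0.015). The call was lost without silenced fibre 2 of day 7 (0.31, adjusted p = 0.052), with median scaling (0.25, adjusted p = 0.154), with the myosin covariates (0.37, adjusted p = 0.0508) and with only the 4 groups fitted (0.37, adjusted p = 0.072). The other 4 genes with TGATGNAA in their window did not pass: Yars was at 0.36 (SE 0.18), Gars at 0.04 (SE 0.10), Iars at -0.06 (SE 0.10) and Tars at -0.18 (SE 0.14).

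**Figure D2:**
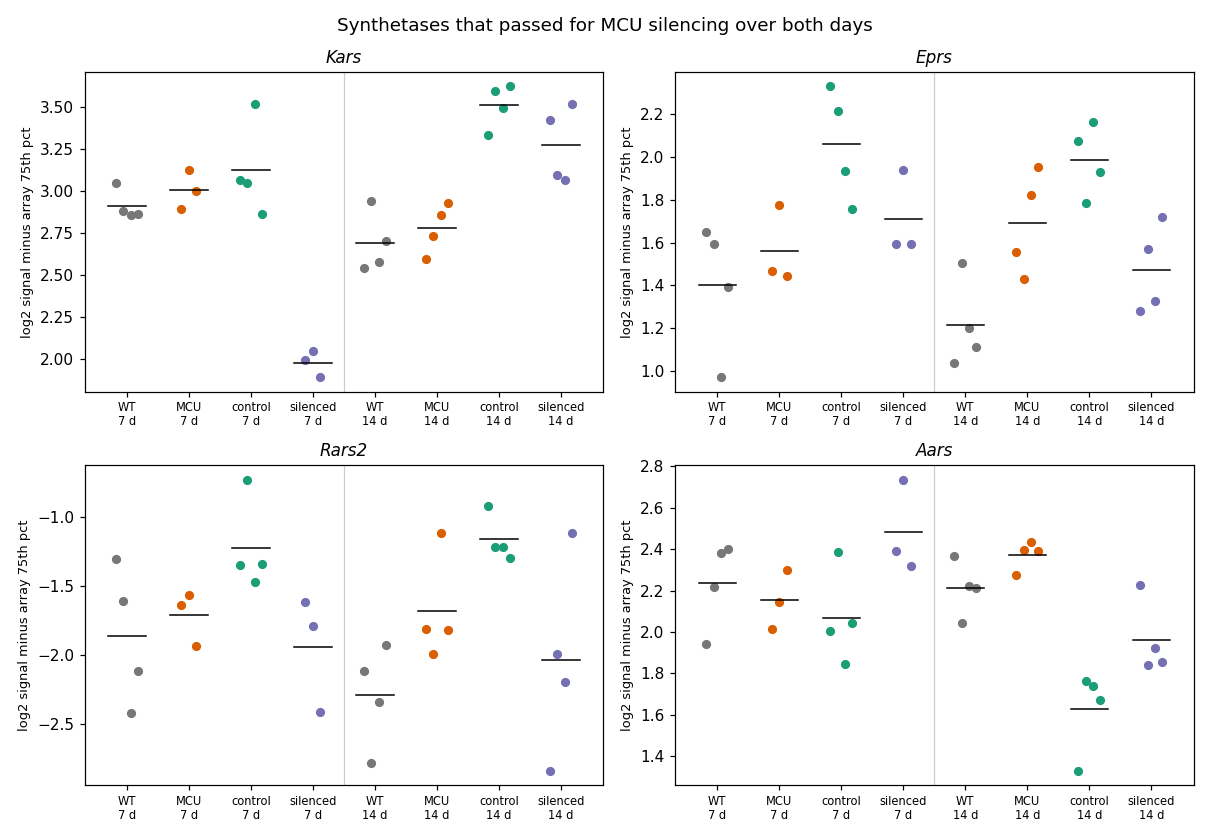
Level of Kars, Eprs, Rars2 and Aars in each of the 30 fibres (points, log2 signal minus the array's 75th percentile) with group means (bars), by group and day. The 3 silenced fibres of day 7 stand apart for Kars (1.89 to 2.05), and every transfected control stands above every wild type fibre of its day for Eprs on both days and for Rars2 at 14 days, while for Rars2 at 7 days the groups overlap.

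The silencing differences were not the same on the 2 days. At 7 days 3 genes passed, against 13.8% of all genes: Kars fell, and Hars and Yars2 rose, beside 5.03% lower and 8.76% higher over all genes. At 14 days 1 gene passed, against 3.52% of all genes: Iars2 rose, as did 1.63% of all genes. The median of the cytosolic genes was 0.16 at 7 days (13 of 20 above 0) and -0.15 at 14 days (5 of 20 above 0), beside 0.09 and -0.00 for all genes. With median scaling these cytosolic medians were 0.03 and -0.28, and with the fast myosins Myh4 and Myh1 as covariates they were 0.17 and 0.09 (14 and 13 of 20 above 0), so that the direction at 14 days turned. Groups did not overlap for 10 of the 35 genes at 7 days (Farsa, Hars, Rars, Yars, Fars2 and Yars2 with silenced fibres above, and Kars, Iars2, Lars2 and Rars2 below), against 21.9% of all genes (14.0% above and 7.94% below). At 14 days this held for 5 genes (Aars, Iars2 and Vars2 above, Eprs and Iars below), against 9.06% of all genes (4.48% above and 4.59% below). No synthetase did so the same way on both days, against 2.03% of all genes.

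Hars stood at 2.73, 2.78, 3.05 and 3.01 in transfected controls of day 7 and at 3.42, 3.25 and 3.18 in silenced fibres, which lay above all 4. The difference was 0.39 (SE 0.12, adjusted p = 0.0332), and -0.02 (SE 0.11) at 14 days. Its call at 7 days was lost without control 1 or 2 or silenced fibre 1 or 2, with adjusted p up to 0.119 and differences from 0.33 to 0.41, and with the fibre number as a block (0.43, adjusted p = 0.1). Yars2, the mitochondrial tyrosine enzyme, stood at 0.13, 0.03, -0.59 and -0.44 against 0.57, 0.45 and 0.72 at 7 days. The silenced fibres again lay above all controls, and the difference was 0.80 (SE 0.25, adjusted p = 0.0388). It was lost without control 3 or 4 or any silenced fibre, with adjusted p up to 0.122 and differences from 0.67 to 0.86, and with the fibre number as a block (0.72, adjusted p = 0.111). With median scaling neither Hars (0.27, adjusted p = 0.231) nor Yars2 (0.67, adjusted p = 0.0971) passed, nor did they without a filter on dim probes (adjusted p = 0.0524 and 0.0571) or with only the groups compared (adjusted p = 0.216 and 0.0939). With normexp background correction Hars was at 0.25 (adjusted p = 0.106) and Yars2 at 0.51 (adjusted p = 0.0353). The 60 bases of the Yars2 probe (chr16:16307393-16307452, mm9), which read through without a stop in 1 frame, are shown because the call rests on this probe.
Yars2: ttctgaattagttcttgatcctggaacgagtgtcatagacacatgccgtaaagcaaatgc

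**Figure D3:**
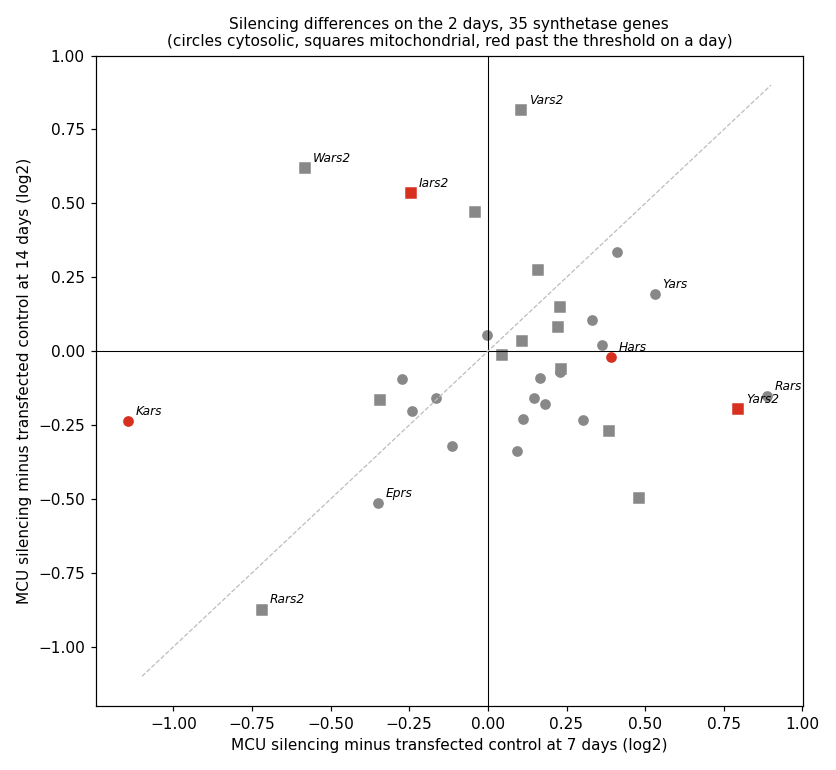
Silencing difference at 7 days (horizontal axis, log2) and at 14 days (vertical axis, log2) for the 35 genes, circles for cytosolic and squares for mitochondrial enzymes, red for those past the threshold on a day and a dashed line of equality. Kars lies at -1.15 and -0.23, and Iars2 and Wars2 lie below 0 at 7 days and above 0 at 14 days.

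The change of the silencing effect between days passed for 3 genes, all with a more positive difference at 14 days (Kars, Iars2 and Wars2), against 1.36% of all genes in that direction and 4.13% in either. Wars2, the mitochondrial tryptophan enzyme, stood at -0.73, -0.82, -1.43 and -0.60 in controls and -1.87, -1.30 and -1.26 in silenced fibres at 7 days. At 14 days it stood at -0.91, -1.54, -0.89 and -1.51 against -0.97, -0.30, -0.45 and -0.64. The groups overlapped on both days, and the difference went from -0.58 (SE 0.24, adjusted p = 0.111) to 0.62 (SE 0.23, adjusted p = 0.127). The change of 1.20 had an SE of 0.33 and an adjusted p of 0.0397, and it missed the threshold with any of 9 of the 15 fibres left out (adjusted p up to 0.103) and with the fibre number as a block (1.11, adjusted p = 0.131), and was 0.58 with normexp background correction (adjusted p = 0.0657). Those 9 were control fibres 1, 2 and 4 of day 7 and 2 and 4 of day 14, and silenced fibres 1 of day 7 and 2, 3 and 4 of day 14. A second Wars2 probe gave 0.90 (SE 0.40, adjusted p = 0.22 over all probes).

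Iars2, the mitochondrial isoleucine enzyme, stood at 1.57, 1.45, 1.62 and 1.67 in controls and 1.28, 1.35 and 1.37 in silenced fibres at 7 days. At 14 days it stood at 0.88, 0.72, 1.27 and 1.24 against 1.69, 1.56, 1.45 and 1.56. Silenced fibres were below every control at 7 days and above every control at 14 days, while the control mean itself went from 1.58 to 1.03. The difference was -0.24 (SE 0.13, adjusted p = 0.231) and then 0.54 (SE 0.12, adjusted p = 0.0158), with a change of 0.78 (SE 0.18, adjusted p = 0.0142). The day 14 call was lost without control 1 (0.48, adjusted p = 0.0564) or 2 (0.43, adjusted p = 0.0642), with median scaling (0.41, adjusted p = 0.0757) and with the myosin covariates (0.48, adjusted p = 0.108). With only the groups compared, adjusted p was 0.205 at 14 days and 0.0805 for the change, and with the fibre number as a block it was 0.0674 and 0.0945.

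The 2 probes of Iars2 did not give the same pattern. At 7 and 14 days the other probe gave silencing differences of 0.21 (SE 0.11, adjusted p = 0.236) and 0.12 (SE 0.10, adjusted p = 0.569), with a change of -0.09 (SE 0.15, adjusted p = 0.813). With the mean of both probes the difference at 14 days was 0.33 (adjusted p = 0.0546) and the change 0.35 (adjusted p = 0.175). Both sequences read through without a stop in 1 frame. The tested probe is at chr1:187139773-187139832 and the other at chr1:187111041-187111948 across a splice junction (mm9, minus strand), and they are printed to show that they are different stretches of the transcript.
Iars2, tested probe: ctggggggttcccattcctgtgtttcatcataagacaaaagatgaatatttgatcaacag
Iars2, other probe: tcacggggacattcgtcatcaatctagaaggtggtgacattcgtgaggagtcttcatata

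Wars, the cytosolic tryptophan enzyme and a gene known to be induced by interferon-gamma, also differed by probe. On the tested probe the silencing difference over both days was -0.22 (SE 0.12, adjusted p = 0.227 in the fit over genes). The other probe, at chr12:110098245-110098304 (mm9, minus strand), gave -0.52 (SE 0.11, adjusted p = 0.00298 over all probes) and passed at 7 days (-0.55, adjusted p = 0.0247). The tested probe lies at chr12:110104366-110104425 and reads through without a stop in 1 frame.
Wars, tested probe: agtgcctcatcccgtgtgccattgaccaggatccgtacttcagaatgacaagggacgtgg
In MCU-vector fibres Wars stood at 3.07, 3.22, 3.20 and 3.13 at 14 days and wild type fibres at 3.04, 2.99, 2.58 and 2.84, with no overlap and a difference of 0.30 (SE 0.16, adjusted p = 0.509). Over both days it was 0.16 (SE 0.12, adjusted p = 0.607) on the tested and 0.01 (SE 0.11, adjusted p = 0.977) on the other probe. On the same arrays 8 of 10 tested interferon-gamma response genes rose with the MCU vector over both days. This stood beside 1.11% of all genes in either direction. In transfected controls 5 of the 10 were higher than in wild type, beside 9.63% of all genes. With silencing 2 of the 10 fell and 0 rose over both days, beside 5.90% lower and 8.55% higher over all genes. Igtp was among the 8 that rose with the MCU vector, by 4.75 (adjusted p = 2.2e-09). So was Cd274, by 2.55, although it was well above background on only 3 arrays of the study, and it is also counted at 7 days. The list was chosen with earlier results of these data known, so these counts are not independent of those results. With the MCU vector 9 of the 10 passed at 7 days, with a median of 3.84, beside 0.573% of all genes. At 14 days 3 passed, with a median of 0.49, beside 0.419% of all genes. Wars differed by 0.02 (SE 0.18) at 7 days.

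**Figure D4:**
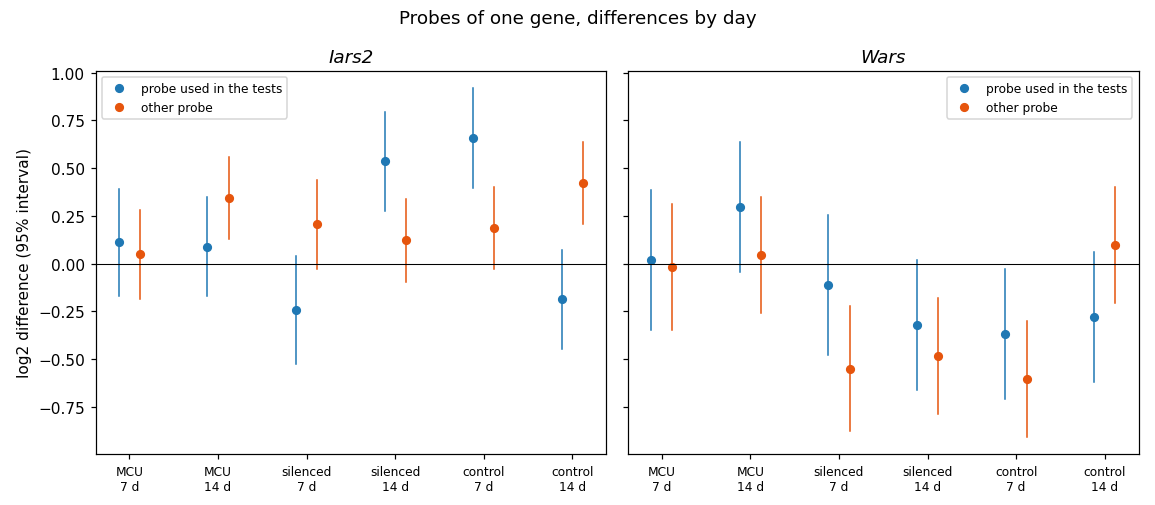
Log2 differences with 95% intervals from each of the 2 probes of Iars2 and of Wars, for MCU vector minus wild type, silencing minus transfected control and transfected control minus wild type at each day. For Iars2 the tested probe goes from -0.24 to 0.54 under silencing while the other stays at 0.21 and 0.12.

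Transfected controls were compared with wild type to give the background of virus and marker, but no slide held both groups, and the slide cannot be told apart from the vector here. Over both days 7 of 35 synthetase genes passed (20 cytosolic tested, 4 passed; 15 mitochondrial tested, 3 passed), against 28.1% of all genes. Eprs, Kars, Iars2, Rars2 and Sars2 were higher, as were 9.63% of all genes, and Aars and Wars lower, as were 18.5%. Medians were -0.03 for either class and -0.05 for all genes, and with median scaling these became 0.14, 0.14 and 0.12. Of all genes that passed, 34.3% were higher, against 66.1% with median scaling and 24.0% with probes detected on all arrays. The summed macrophage markers, of which 5 of 7 were well above background on all arrays, were lower in transfected controls (237 to 280 at 7 days and 277 to 309 at 14 days) than in wild type (291 to 349 and 312 to 324). At 7 days the sum was also lower than in silenced fibres (295 to 339). One Itgam probe made up most of this sum, and without it the range was 24.2 to 31.9 over all groups. Their part in the synthetase differences was not tested.

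Eprs was higher by 0.71 (SE 0.12, adjusted p = 7.31e-05). Wild type fibres stood at 1.65, 1.59, 0.97 and 1.39 at 7 days and 1.04, 1.50, 1.20 and 1.11 at 14 days, below every transfected control of the same day. Rars2 was higher by 0.88 (SE 0.20, adjusted p = 0.00218), with wild type fibres at -1.31, -1.61, -2.42 and -2.12 at 7 days and -2.12, -2.78, -2.35 and -1.93 at 14 days. It overlapped with the controls and did not pass at 7 days (0.64, adjusted p = 0.129), and passed at 14 days (1.13, adjusted p = 0.00963). Kars was higher by 0.52 (SE 0.09, adjusted p = 0.000233), mostly at 14 days, where it differed by 0.82 (SE 0.13, adjusted p = 0.000244) and by 0.21 (SE 0.13, adjusted p = 0.288) at 7 days. Aars was lower by -0.38 (SE 0.10, adjusted p = 0.00505), with -0.59 (adjusted p = 0.00506) at 14 days and -0.16 (adjusted p = 0.434) at 7 days, and with median scaling its both-days value was -0.21 (adjusted p = 0.159). Eprs, Kars and Rars2 passed in all 10 alternatives run for this comparison, with Rars2 at 0.40 under normexp background correction (adjusted p = 0.000243).

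The other 3 calls were marginal. Wars was lower by -0.32 (SE 0.12, adjusted p = 0.037), Iars2 higher by 0.24 (SE 0.09, adjusted p = 0.0471) and Sars2, the mitochondrial serine enzyme, higher by 0.30 (SE 0.11, adjusted p = 0.0411). Leaving out 1 fibre ended the call in 9, 11 and 12 of 16 cases, with values in those cases from -0.33 to -0.26, from 0.19 to 0.24 and from 0.25 to 0.30 and adjusted p up to 0.0915, 0.108 and 0.0934. With median scaling Wars was at -0.16 (adjusted p = 0.373), Iars2 at 0.40 (adjusted p = 0.00215) and Sars2 at 0.47 (adjusted p = 0.0109). The fibres in question were wild type 2, 3 and 4 of day 7 and 1, 2 and 4 of day 14 and controls 3 of day 7 and 3 and 4 of day 14 for Wars. The Iars2 call held only without wild type 2 of day 7 or 3 of day 14, or controls 2 of day 7 or 1 or 2 of day 14, and the Sars2 call only without wild type 4 of day 7 or 2 of day 14, or control 3 of day 7 or 1 of day 14. On its other probe Iars2 was higher by 0.30 (SE 0.07, adjusted p = 0.00352 over all probes), but the probes went opposite ways at 14 days. Means of controls and wild type were then 1.03 and 1.22 on the tested probe and 1.24 and 0.82 on the other. At 7 days they were 1.58 and 0.92 on the tested probe and 1.28 and 1.10 on the other. The second probe of Tars2, the mitochondrial threonine enzyme, was higher by 0.32 (SE 0.09, adjusted p = 0.011 over all probes) while its tested probe gave -0.12 (SE 0.13, adjusted p = 0.524). For Wars the tested probe had means of 2.50 in controls and 2.87 in wild type at 7 days, and 2.58 and 2.86 at 14 days. Its other probe had 0.18 and 0.78 at 7 days, but 0.63 and 0.54 at 14 days, with controls not lower.

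By day, 3 genes passed at 7 days against 17.7% of all genes, Eprs and Iars2 higher (5.98% of all genes) and Hars2 lower (11.7%). Hars2 was at 2.88, 2.70, 2.71 and 2.93 in wild type and 2.21, 2.39, 2.47 and 2.54 in transfected controls, a difference of -0.40 (SE 0.13, adjusted p = 0.0281) that was lost with median scaling (-0.23, adjusted p = 0.313) and without wild type 1 or 4 or control 1 or 2 (adjusted p up to 0.0945). At 14 days 4 passed against 16.0% of all genes, Eprs, Kars and Rars2 higher (5.55% of all genes) and Aars lower, the last of which was lost with median scaling (-0.42, adjusted p = 0.0688). Eprs at 7 days missed the threshold when only the groups compared were fitted (0.66, adjusted p = 0.0584), and the Iars2 difference of 0.66 at 7 days was 0.42 with the mean of its probes (adjusted p = 0.00332).

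The silencing and control comparisons share the transfected control fibres, so their differences are not independent, and the means of all 4 conditions are therefore set side by side. For Eprs they were 1.40 ± 0.31 (SD, n = 4) in wild type, 1.56 ± 0.18 (SD, n = 3) with the MCU vector, 2.06 ± 0.26 (SD, n = 4) in transfected controls and 1.71 ± 0.20 (SD, n = 3) in silenced fibres at 7 days. At 14 days they were 1.22 ± 0.20, 1.69 ± 0.24, 1.99 ± 0.17 and 1.47 ± 0.21 (SD, n = 4 each). The transfected controls were the highest of the 4 on both days. For Rars2 the means in the same order were -1.87, -1.72, -1.22 and -1.94 at 7 days and -2.29, -1.69, -1.17 and -2.04 at 14 days, again with the controls highest. For Aars they were 2.23, 2.15, 2.07 and 2.48 and then 2.21, 2.37, 1.62 and 1.96, with the controls lowest on both days. Kars also had its highest mean in the transfected controls on both days. Its mean with the MCU vector was 3.01 ± 0.11 (SD, n = 3) on day 7, and on day 14 the mean was 2.78 ± 0.15 (SD, n = 4). At 7 days the silenced mean, 1.98 ± 0.08 (SD, n = 3), was below the wild type mean of 2.91 ± 0.09 (SD, n = 4) as well as the control mean of 3.12 ± 0.28 (SD, n = 4), while at 14 days the control and silenced means, 3.51 ± 0.13 and 3.27 ± 0.23, were both above wild type at 2.69 ± 0.18 (SD, n = 4 each).

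**Figure D5:**
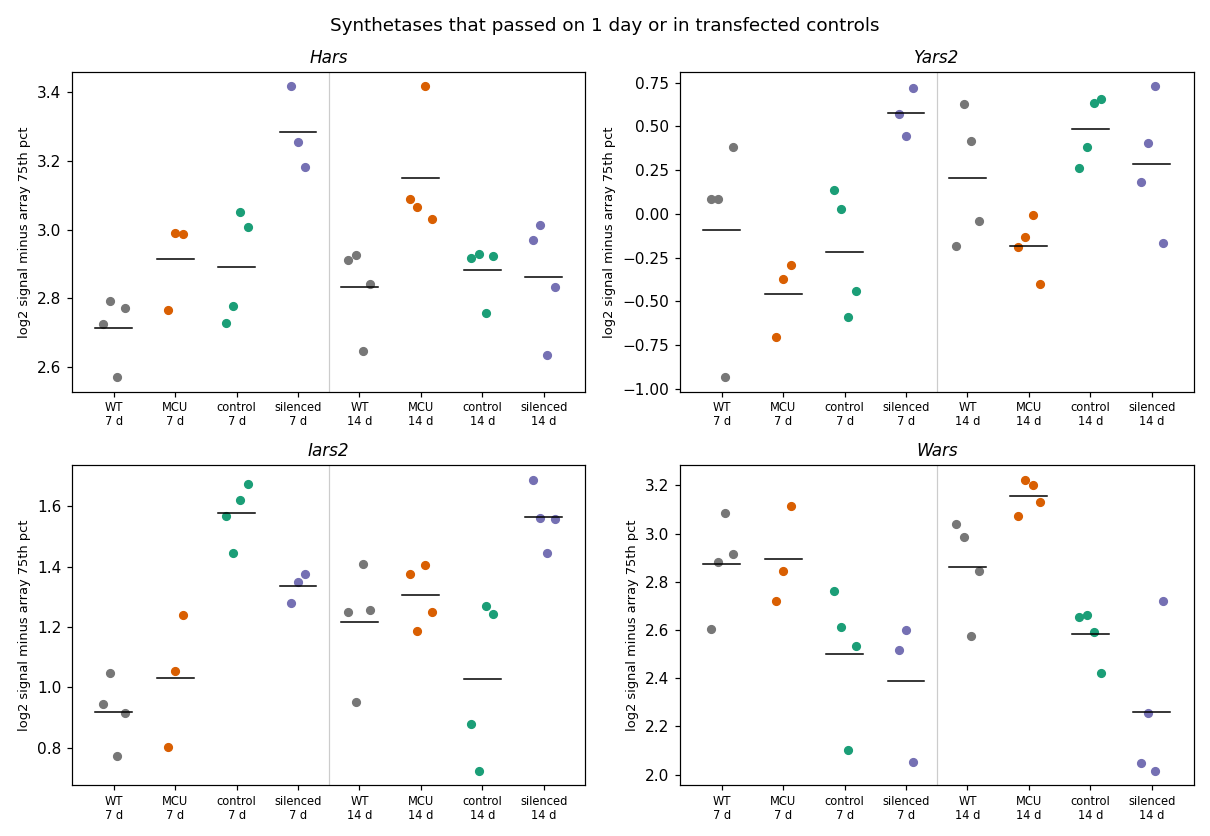
Level of Hars, Yars2, Iars2 and Wars in each of the 30 fibres (points, log2 signal minus the array's 75th percentile) with group means (bars). Silenced fibres of day 7 lie above the day's controls for Hars and Yars2, and silenced fibres of day 14 lie above theirs for Iars2.

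Whether the vector and silencing effects differ was tested directly, with no control shared between them. The controls differ in kind, since wild type fibres carried no vector and transfected controls carried an AAV. Carrying a vector therefore enters this difference and cannot be told apart from MCU in it. Over both days 3 synthetase genes passed, against 11.3% of all genes (5.19% in this direction), each with a more positive effect of the MCU vector: Rars2 by 1.18 (SE 0.30, adjusted p = 0.0144), Kars by 0.78 (SE 0.14, adjusted p = 0.000845) and Eprs by 0.75 (SE 0.17, adjusted p = 0.00718). These 3 passed under all 11 alternatives and without any 1 of the 30 fibres, although Rars2 was at 0.43 with normexp background correction (adjusted p = 0.0121). Of the mitochondrial genes 13 of 15 were below 0, with a median of -0.23 beside -0.08 over all genes, and of the cytosolic genes 11 of 20 were above 0, with a median of 0.02. With median scaling the medians were -0.06, 0.09 and 0.19.

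Between 7 and 14 days no synthetase gene changed in wild type fibres, against 2.34% of all genes, where 2 were higher and 2 lower at an unadjusted p below 0.05 in limma. In transfected controls 2 passed, against 3.23% of all genes (1.99% higher and 1.23% lower). Fars2, the mitochondrial phenylalanine enzyme, rose by 0.95 (SE 0.24, adjusted p = 0.0292), from 1.82, 1.71, 2.06 and 2.10 to 2.39, 3.13, 3.07 and 2.90, and Iars2 fell by 0.55 (SE 0.12, adjusted p = 0.0166). Fars2 missed the threshold without fibre 1 or 2 of day 7 or 2, 3 or 4 of day 14 (0.86 to 0.94, adjusted p up to 0.0801), and Iars2 without fibre 2 of day 14 (-0.45, adjusted p = 0.068) and with the mean of its probes (-0.30, adjusted p = 0.085). With only the groups compared neither passed (adjusted p = 0.0902 and 0.167). Day and slide cannot be told apart in these comparisons.

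Of the 35 tested genes, 12 passed in 1 or more of the 14 comparisons and 23 in none. The 15 cytosolic genes of the latter were Cars, Dars, Farsa, Farsb, Gars, Iars, Lars, Mars, Nars, Qars, Rars, Sars, Tars, Vars and Yars, with group means spanning 0.35 (Qars) to 1.09 (Rars). Of the multi-synthetase complex, Kars and Eprs were thus the members that passed, while Iars, Lars, Qars, Mars, Rars and Dars did not. The 8 mitochondrial genes were Aars2, Cars2, Ears2, Lars2, Mars2, Pars2, Tars2 and Vars2, with group means spanning 0.34 (Pars2) to 1.36 (Vars2). The lowest adjusted p among these 23 was 0.0584, for Lars2, the mitochondrial leucine enzyme. Vars2, the mitochondrial valine enzyme, had its widest difference with silencing at 14 days (0.82, adjusted p = 0.225).

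Between fibres of a group, the cytosolic genes varied with a median SD of 0.21 and the mitochondrial genes of 0.29, beside 0.31 over all genes. After removing group means, the correlation over the 30 fibres, which share the array's scaling and signal level, averaged 0.24 between pairs of cytosolic genes, 0.32 between those of the multi-synthetase complex, 0.09 between mitochondrial genes and 0.02 across the classes, beside 0.01 over all genes. Iars and Tars (0.69), Lars and Rars (0.68) and Eprs and Tars (0.67) were the closest pairs. These are descriptions without a test.

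The other genes of the pathway were taken as lists, whose counts stand beside 1.11% of all genes passing with the vector, 8.55% higher and 5.90% lower with silencing, and 9.63% higher and 18.5% lower in transfected controls over both days. Of 8 tested genes around the synthetases (scaffold proteins, editing enzymes and the selenocysteine route), 0 passed with the MCU vector, 1 rose with silencing (Aarsd1, an alanyl-tRNA editing protein, by 0.30, adjusted p = 0.0293) and 1 was higher in transfected controls (Dtd1, a deacylase of D-aminoacyl-tRNAs, by 0.42, adjusted p = 0.0249). Of 18 cytosolic initiation and elongation genes, 0 passed with the vector, and 3 fell with silencing and 0 rose: Eif4g1 by -0.46 (adjusted p = 0.0101), Eif4a1 by -0.54 (adjusted p = 0.0326) and Eif4e by -0.45 (adjusted p = 0.0368), which together form the cap-binding complex eIF4F. By day, 2 of the 18 were lower at 7 days, beside 5.03% of all genes. At 14 days 0 were lower, beside 3.52% of all genes in either direction, and 0 were higher on either day. Eif4g1, Eif4a1 and Eif4e were among the 5 that were higher in transfected controls than in wild type, by 0.33, 0.54 and 0.65. The same control fibres entered both comparisons. Of 12 mitochondrial translation factors, 0 passed with the vector or silencing and 1 was higher in transfected controls (Mtif2, an initiation factor, by 0.18, adjusted p = 0.0396).

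Of 30 genes of the amino acid response, 0 passed with the vector, 3 rose and 7 fell with silencing, and 9 were higher and 7 lower in transfected controls. By day, 5 rose and 5 fell with silencing at 7 days, beside 8.76% of all genes higher and 5.03% lower. At 14 days 0 rose and 1 fell, beside 1.63% of all genes higher and 3.52% in either direction. The 3 that rose over both days were Eif2ak4, the kinase GCN2 that senses uncharged tRNA, by 0.60 (adjusted p = 0.0373), Pck2, a mitochondrial enzyme, by 0.50 (adjusted p = 0.0132) and Psat1, of serine synthesis, by 0.44 (adjusted p = 0.0187), which were named after their values were seen. In the same transfected controls Eif2ak4 and Pck2 were lower than in wild type, by -0.86 and -1.19 (adjusted p = 0.00114 and 4.32e-07). Under silencing Stc2, a secreted glycoprotein induced by this response, fell by 1.29 (adjusted p = 0.000391), and the amino acid transporters Slc38a2 and Slc7a1 fell by 1.23 (adjusted p = 0.00567) and 0.68 (adjusted p = 0.0072). In the same transfected controls these 3 were higher than in wild type, by 1.60, 2.00 and 0.74 (adjusted p = 5e-06, 1.05e-05 and 0.00101). Of 11 growth genes, 0 passed with the vector, and 1 rose and 2 fell with silencing. In transfected controls 6 of the 11 were higher than in wild type and 1 lower, beside 9.63% and 18.5% of all genes. Myc, the transcription factor that binds the E-box, fell by 3.04 (adjusted p = 0.000679) and was higher in the same transfected controls than in wild type by 3.68 (adjusted p = 1.55e-05). Median differences with silencing were -0.02 for the amino acid response list and -0.14 for the growth list, beside 0.05 over all genes.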

How the data were processed

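Each of 30 single fibres was hybridised to its own 1-colour Agilent mouse array after whole-transcriptome amplification and random-primed labelling, which does not keep strand. The authors' deposited scanner files hold spot intensity from Feature Extraction 10.7.3.1, per the file headers, already background-subtracted and detrended within the array. The deposited series matrix holds intensity on a linear scale, with medians of 22.5 to 23.2 over arrays; its normalization is not given in the sources used here, and it served as an alternative. Probe positions are on mm9, per the file headers.

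Control and outlier-flagged spots were left out, replicate spots averaged, and each array's 75th percentile subtracted from log2 intensity. The 33164 probes that reached this detection flag (well above background) on 3 or more arrays of any group were kept, and each of 23368 genes took the value of its brightest such probe on average. All 45 member probes matched RefSeq by accession (44 under the same symbol). An 8-group linear model was fitted with limma 3.58.1 in R 4.3.3 (22 residual degrees of freedom, 2-sided tests, Benjamini-Hochberg adjustment). Tested on simulated data for the silencing comparison over both days, with 23368 genes, it recovered 79 of 100 genes changed by 1 and 32 of 100 changed by 0.5 on the log2 scale. The simulation changed 200 genes, while 3376 passed in the data, so its recovery need not hold there. Probes of the same gene were compared in a second fit over all kept probes. The number of arrays limits the precision.

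There were 4 slides: 1 for each day with wild type beside MCU-vector fibres, and 1 for each day with silenced fibres beside their transfected controls. Members and gene lists were chosen with earlier results of these data known. Some markers and a sequence are not reported here. All 36 members are accounted for; full values are given for members that passed over both days, otherwise for the 6 with the largest statistic, and for members whose probes disagree. Alternatives changed the scaling, background correction, filter, probe rule, samples, covariates or block, or left out 1 fibre. Figures were drawn with matplotlib 3.10.9.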

Additional observations from a re-analysis of the deposited data

Results flagged for a closer look

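In 12 of 210 groups of 4 fibres (5.71%) 1 fibre lay far from the others by Dixon's criterion, which chance meets in about 1 of 20 groups. Fibre 3 of the transfected controls of day 7 was the low fibre for Cars (1.21 against 1.57 to 1.59), Mars2 (-2.96 against -1.58 to -1.37) and Pars2 (1.86 against 2.27 to 2.32), and fibre 2 of that group was the high one for Rars2 (-0.73 against -1.47 to -1.35). In transfected controls of day 14, fibre 2 was high for Dars (1.64 against 1.03 to 1.05), fibre 1 was high for Qars (3.67 against 3.32 to 3.37), fibre 3 was low for Hars (2.76 against 2.92 to 2.93) and fibre 4 was low for Yars (-2.52 against -1.79 to -1.65). In wild type fibres of day 7, fibre 1 was high for Kars (3.05 against 2.86 to 2.88) and fibre 3 low for Rars (-2.66 against -1.28 to -1.08). Fibre 2 of wild type at day 14 was high for Sars2 (0.11 against -0.30 to -0.26), and fibre 3 of the MCU vector at day 14 was high for Hars (3.42 against 3.03 to 3.09).

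The silencing effect differed between the days for Kars by 0.91, for Iars2 by 0.78 and for Wars2 by 1.20 (limma adjusted p = 0.00778, 0.0142 and 0.0397). The effects of MCU vector and silencing differed for Eprs by 0.75, for Kars by 0.78 and for Rars2 by 1.18 (limma adjusted p = 0.00718, 0.000845 and 0.0144). The reported Iars2 change comes from 1 of its 2 probes.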

How the results depend on the processing

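The named members' values kept their direction in every recomputation; of those under other settings 331 kept their side of the threshold and 49 did not, and of those without 1 fibre 433 did and 65 did not. The MCU vector count stayed at 0 throughout. The count for silencing over both days (4) ran from 1 (myosin covariates) to 6 under other settings. It was 2 to 4 without 1 fibre, with 2 without silenced fibre 3 of day 7. At 7 days (3) it was 1 with median scaling, no filter or only the groups compared, 6 with probes detected on all arrays, 5 with quantile normalization or the series matrix, and 1 to 4 without 1 fibre. At 14 days (1) it was 0 with the mean of probes or only the groups compared and 0 to 2 without 1 fibre. For the change between days (3) it was 0 with only the groups compared and 2 to 3 without 1 fibre. For transfected control against wild type the count (7) ran from 4 (no filter) to 9 under other settings, and from 4 to 7 without 1 fibre. At 7 days (3) it was 5 with probes detected on all arrays or quantile normalization, 7 with normexp, 6 with the series matrix, 1 with only the groups compared and 2 to 4 without 1 fibre. For controls between days (2) it ran from 0 (only the groups compared) to 3 under other settings, with 1 under the mean of probes. Without 1 fibre it was 0 to 3. For the vector against the silencing effect (3) it was 6 with probes detected on all arrays, 5 with quantile normalization, the series matrix or the mean of probes, and 3 to 5 without 1 fibre. The cause was not tested, except that fewer samples entered the fits of only the groups compared or without 1 fibre.

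With the fibre number as a replicate block the counts were 4 for silencing over both days, 1 at 7 days, 0 at 14 days and 1 for the change between days. Correlations between same-numbered fibres ran from -0.175 to 0.187, with 4 of 14 above 0.1. Of these 14, 7 were closest to their own number, more than an even choice among 4 controls would give. The labels name no pairing and the number was not taken as one, but these values do not exclude it. The slide as a block is the same fit for comparisons within a slide.

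Over all genes, the 260 calls for the vector were 514 with normexp, 553 with myosin covariates and 142 with the replicate block, and the 3376 for silencing were 1628 with only the groups compared. Low signal limits Mars2 and Vars2, each detected on 26 of 30 arrays, and Rars2, detected on 28.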
